A study of Mus musculus with 12 samples.

Results

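The laminins, collagens and integrins described here are 52 mouse genes, taken from a count table of 26301 genes by matching their symbols to its Entrez identifiers. They comprise 10 laminin chains, 8 other basement membrane genes, 6 fibrillar collagens, 7 genes for microfibril, network and fibril-associated proteins, 6 adhesive or matricellular glycoproteins, 2 crosslinking enzymes, 7 integrin alpha subunits, and 6 genes for integrin beta subunits and dystroglycan. The set was selected on a measured result, namely that laminin interaction genes were raised in tumors lacking E2f7 and E2f8 relative to control livers. Values for that contrast are therefore given as a description, without a test.

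RNA was sequenced from 12 samples, 4 in each of 3 groups. The control livers were non-tumor livers of wild-type adult mice. The DKO samples were spontaneous liver tumors of adult Alb-Cre E2f7 E2f8 knockout mice, and the TKO samples were spontaneous liver tumors of adult Alb-Cre Rb1 E2f7 E2f8 knockout mice. The mice had aged until a humane end-point was reached, and were bred into the FVB strain. Cre was driven by the albumin promoter, which acts in hepatocytes, so endothelial and stellate cells within a tumor were not targeted. No tumor-free knockout liver is among the samples, so deletion and tumor growth cannot be told apart. Rb1, E2f7 and E2f8 encode the retinoblastoma protein and the atypical E2F repressors of cell cycle genes.

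Laminins are trimers of an alpha, a beta and a gamma chain that assemble on the cell surface into a sheet. A network of collagen IV forms beside it, and nidogens and perlecan join both into a basement membrane. The normal liver sinusoid lacks a continuous basement membrane, whereas bile ducts and larger vessels rest on one. Fibrillar collagens, made mostly by activated stellate cells and portal fibroblasts, form the interstitial matrix. Cells hold on to both kinds of matrix through integrins, which are pairs of an alpha and a beta subunit, and through dystroglycan.

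The libraries held between 9165812 and 16424973 counts. Of the genes, 13882 passed the filter on low counts and were tested, among them 50 of the 52 members. The integrin beta genes Itgb6 and Itgb8 did not pass, with at most 6 and 22 counts in any library. Levels are given in CPM, counts per 1000000 after scaling by the trimmed mean of M values (TMM), and group values are the mean ± SD of 4 libraries. Rb1 stood at 3.21 to 5.47 CPM in the libraries labelled TKO and at 6.52 to 11.3 CPM in the others. E2f7 ranged from 0.236 to 1.84 CPM with overlapping groups, and E2f8 was at 4.52 to 8.97 CPM in the control livers and 7.59 to 52.2 CPM in the tumors, so counts over the whole gene did not show their deletion. The hepatocyte genes Alb and Hnf4a were present in all 12 libraries, at no less than 37568 and 541 CPM. In whole tissue, fewer cells of a type and less RNA per cell cannot be told apart.

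The member with the highest level per kb of exon over the 12 libraries was Fn1, at 182 CPM per kb, followed by Col18a1 at 121, Itgb1 at 52, Sparc at 42.1, Itgb5 at 25.9, Dag1 at 24.4 and Nid1 at 20.9. The other 45 members were at 6.29 CPM per kb or less, down to 0.0339 for Itgb8 and 0.0243 for Itgb6. Laminin chains were scarce, between 0.145 CPM per kb for Lama2 and 2.49 for Lamc1.

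In DKO tumors, the contrast that chose the set, 35 of the 50 tested members were above the control mean and 15 below it. The median log2 fold change was 0.31, beside 0.02 over all tested genes. All 4 DKO values were above all 4 control values for 10 members, where 8.87% of all tested genes were so placed, and below them for 0 members, where 7.3% were. These 10 were Lama5, Lamb2, Lamc1, Nid1, Sparc, Thbs1, Itga3, Itga6, Itgb1 and Itgb5. The edgeR quasi-likelihood fit called 6 members higher with 2.42% of all tested genes called in either direction, and DESeq2 called 12 with 9.95% called. Nothing is read from these counts, as they follow from the choice of the set.

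TKO tumors took no part in that choice, although they are set against the same 4 control livers. Here 41 of the 50 members were above the control mean and 9 below it, with a median log2 fold change of 0.30 beside 0.02 over all tested genes. The 4 TKO values were all above the 4 control values for 4 members, Lamc1, Nid1, Col4a1 and Sparc. This is 8.00% of the tested members, against 4.38% of all tested genes. No member had all its TKO values below the controls (0 members, with 3.29% of all tested genes). With edgeR, 0 members passed an adjusted p of 0.05, as did 0.0864% of all tested genes, and the lowest adjusted p among the members was 0.0915, for Sparc. An unadjusted p under 0.05 was reached by 10 members, or 20.0% of them, against 16.3% of all tested genes. DESeq2 called 3 members higher, Lamb2, Nid1 and Sparc, with 3.32% of its genes called. By voom 1 member was called, Sparc, with 97 of all 13882 tested genes called. By role, the median TKO log2 fold change was 0.55 for the basement membrane collagens and linkers (8 of 8 above the control mean), 0.45 for the microfibril, network and fibril-associated genes (7 of 7, and 6 of 7 with DESeq2 or its size factors), 0.40 for both crosslinking enzymes, 0.38 for the laminin chains (6 of 10), 0.30 for the fibrillar collagens (4 of 6), 0.26 for the glycoproteins (5 of 6), 0.16 for the integrin alpha subunits (6 of 7) and 0.08 for the beta subunits and dystroglycan (3 of 4). The order of these medians depended on the method. By voom with quality weights, the medians were 0.97 for the crosslinking enzymes, 0.96 for the microfibril group, 0.83 for the glycoproteins, 0.80 for the fibrillar collagens, 0.65 for the basement membrane group and 0.20 for the laminin chains, and that of all members was 0.65. Of all tested genes, 52.5% were above the control mean in edgeR.

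**Figure D1:**
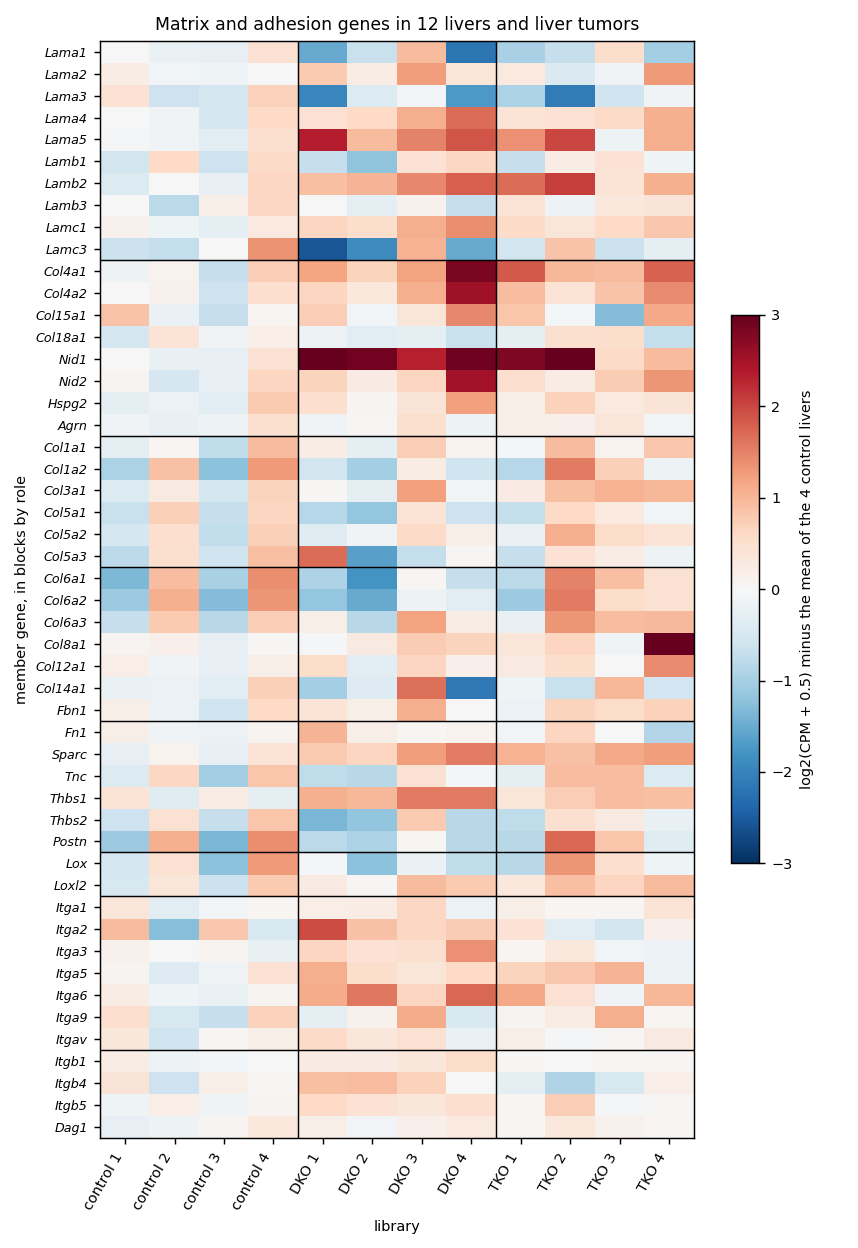
Level of the 50 tested members in each library, as log2(CPM + 0.5) minus the mean of the 4 control livers, with genes in rows by role and libraries in columns by group. The colour scale ends at 3 on either side of 0. Red runs through Nid1, Col4a1, Lama5, Lamb2, Lamc1 and Sparc in most tumors. Col1a2, Col6a1, Col6a2 and Postn are red in control 2, control 4 and TKO 2 and, more faintly, in TKO 3.

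Among the laminin chains, alpha 5 (Lama5), beta 2 (Lamb2) and gamma 1 (Lamc1) can assemble into 1 trimer. These genes had their highest levels in tumors, as did Lama1, Lama2, Lama4 and Lamb1. Lamc1, the common gamma chain (chr1:155066052-155179916, mm9), was at 15, 12.5, 11 and 16.8 CPM in control livers 1 to 4, at 21.8, 20.0, 29.8 and 37.0 CPM in DKO tumors 1 to 4, and at 20.4, 17.6, 20.9 and 24.2 CPM in TKO tumors 1 to 4. All 8 tumors lay above all 4 control livers. In TKO tumors the log2 fold change was 0.59 (SE 0.206, edgeR adjusted p = 0.200), and that of DKO tumors was 0.97.

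Lama5 (chr2:179911078-179960564, mm9), the alpha chain of many adult basement membranes, was at 2.60, 2.46, 2.03 and 3.95 CPM in the control livers, 15.9, 5.62, 8.52 and 11.4 in DKO tumors and 7.78, 12.3, 2.38 and 6.27 in TKO tumors. TKO tumor 3 lay within the control range, while the other 3 TKO tumors and all DKO tumors were above it. Against the control livers, TKO tumors had a log2 fold change of 1.37 (SE 0.450, edgeR adjusted p = 0.181), and 1.66 with an adjusted p of 0.0498 without TKO tumor 3. Lamb2 (chr9:108382193-108392861, mm9), a beta chain of mature vessels and of muscle and kidney, was at 3.78, 5.29, 4.34 and 8.35 CPM in the control livers, 10.2, 11.1, 15.1 and 19.4 in DKO tumors and 17.7, 23.7, 7.06 and 11.4 in TKO tumors. Again only TKO tumor 3 lay inside the control range. The TKO change was 2.75-fold, or 1.46 on the log2 scale (SE 0.373), with an adjusted p of 0.132 by edgeR, 0.0154 by DESeq2, and 0.0341 by edgeR without TKO tumor 3. That tumor had the lowest TKO value of both Lama5 and Lamb2, so leaving it out raises their changes. Leaving it out also raised the calls over all tested genes, from 12 to 231.

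The other 7 chains overlapped between the control livers and both tumor groups. Lama4, an alpha chain of vessel walls, was at 1.83 to 4.47 CPM in the control livers, 4.06 to 10.02 in DKO tumors and 3.86 to 6.42 in TKO tumors. Its log2 fold change was 0.68 in TKO tumors (SE 0.343, edgeR adjusted p = 0.351) and 1.10 in DKO tumors. Lama3, an alpha chain of epithelial laminin, ranged from 5.66 to 14.8 CPM in the control livers and from 1.71 to 8.34 CPM in the 8 tumors. Its TKO log2 fold change was -0.96 (SE 0.543, edgeR adjusted p = 0.411). Lama1, Lama2, Lamb1, Lamb3 and Lamc3 had TKO log2 fold changes from -0.55 to 0.56. The lowest were counted in few reads, with 1 to 75 counts per library for Lama1 and 4 to 30 for Lamb3.

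Because chains assemble in fixed proportions, each was also expressed as a share of its class, from CPM per kb of exon. These shares were chosen after the values had been seen and carry no test. Lama3 made up 43.4% to 59.3% of alpha chain transcripts in the control livers, 8.44% to 36.1% in DKO tumors and 9.27% to 35.4% in TKO tumors, without overlap between the control livers and either tumor group. Lama5 made up 11.7% to 17.5% in the control livers and 26.2% to 64.6% in DKO tumors. In TKO tumors its share was 41.9%, 61.7%, 13.5% and 24.5%, so TKO tumor 3 again stood with the control livers. Lamb2 took 42.9% to 49.1% of beta chains in the control livers and 65.4% to 79.6% in 7 of the 8 tumors, and 47.3% in TKO tumor 3. The summed alpha chain level overlapped, at 1.16 to 2.53 CPM per kb in the control livers, 1.73 to 2.85 in DKO tumors and 1.54 to 2.25 in TKO tumors.

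**Figure D2:**
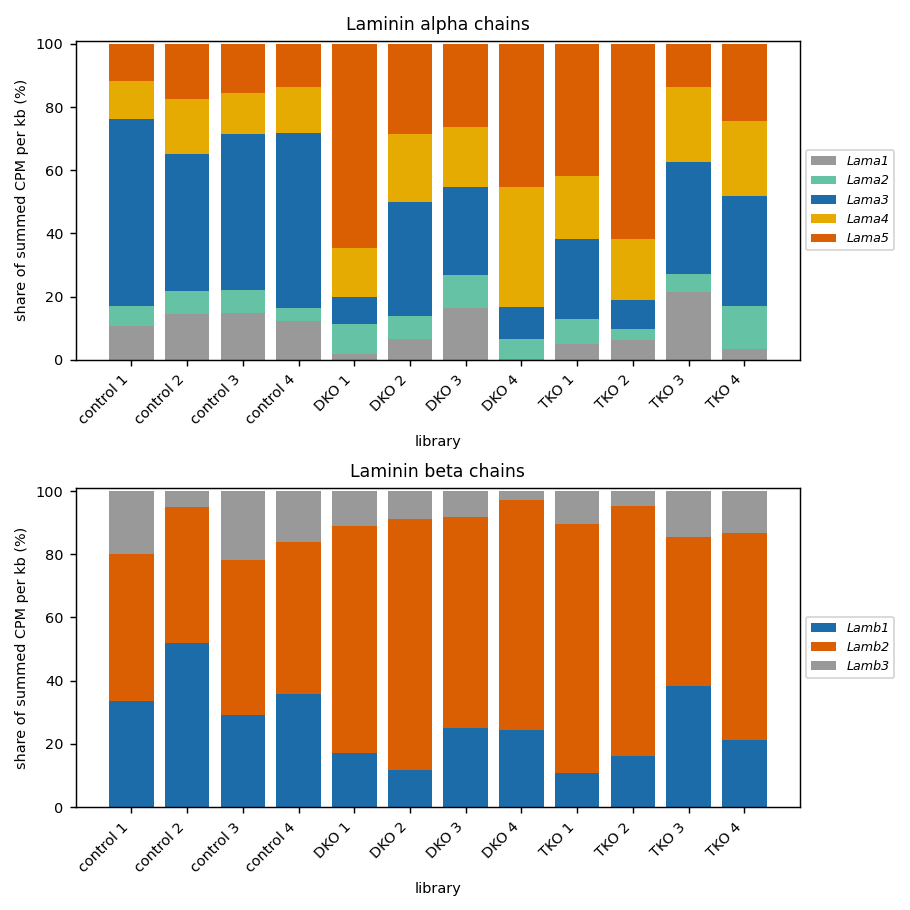
Share of each laminin chain in the summed CPM per kb of its class (%), for alpha chains above and beta chains below, with 1 stacked bar for each of the 12 libraries. Lama3 is the widest alpha segment in the 4 control livers, at 43.4% to 59.3%, and Lama5 is the widest in DKO 1, DKO 4, TKO 1 and TKO 2.

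Nidogen 1, the linker between laminin and collagen IV, had the largest fitted fold change of the members in both tumor groups. Its gene Nid1 (chr13:13529869-13604542, mm9, plus strand) and Sparc, which encodes a secreted glycoprotein that binds collagen, are the members with RefSeq upstream sequence and separate groups in both tumor comparisons, and their 250 bases upstream of the transcript start are shown in GRCm38.p6. Nid1 lies downstream of chr13:13437352-13437601 and Sparc, on the minus strand, of chr11:55420081-55420330. Capitals mark matches to GGAATG (the core of TEAD sites), CCAAT (here on the other strand, as ATTGG) and GGGCGG (the core of SP sites), searched on both strands. The window of Sparc held none of them.
Nid1: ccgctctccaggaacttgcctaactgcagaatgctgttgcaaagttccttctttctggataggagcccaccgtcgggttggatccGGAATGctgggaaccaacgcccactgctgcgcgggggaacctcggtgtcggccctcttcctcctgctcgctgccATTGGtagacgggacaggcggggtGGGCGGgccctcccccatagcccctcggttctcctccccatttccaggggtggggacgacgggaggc
Sparc: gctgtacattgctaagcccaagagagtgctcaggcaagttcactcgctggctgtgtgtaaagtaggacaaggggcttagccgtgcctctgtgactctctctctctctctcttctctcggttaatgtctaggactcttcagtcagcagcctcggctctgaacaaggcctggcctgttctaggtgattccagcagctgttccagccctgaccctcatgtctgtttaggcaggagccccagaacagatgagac

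Of the 52 members, 36 were in the RefSeq table, with 45 of its 32851 upstream windows. GGGCGG was found in 24 of the 45 windows (53.3%), against 32.7% of all windows, GGAATG in 13.3% against 12.6%, and CCAAT in 26.7% against 33.8%. The E2F motifs TTTCCCGC and TTTGGCGC were in 0 of the 45 windows, and in 0.895% and 0.417% of all windows. TGANTCA, the AP-1 motif, was in 1 member window, that of Col6a1, or 2.22% against 6.75%, and TATAAA was in 11.1% against 12.4%. GGGCGG can lie within longer GC-rich runs, and these matches describe letters only.

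Nid1 was at 23.4, 19.7, 19.6 and 31.8 CPM in the control livers, 483, 175, 119.6 and 178 in DKO tumors and 165, 219, 34.9 and 45.4 in TKO tumors. All 8 tumors exceeded all 4 control livers, but TKO tumors 3 and 4 did so narrowly. The TKO change was 4.90-fold, 2.29 on the log2 scale (SE 0.594), with an adjusted p of 0.132 by edgeR and 0.00596 by DESeq2. Without TKO tumor 3, which lay nearest the controls, edgeR gave 2.59 with an adjusted p of 0.0420. Taking out the lowest TKO value raises the change, and the calls over all tested genes also rose, from 12 to 231. In DKO tumors the log2 fold change was 3.34 (SE 0.619).

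Of the hepatocyte markers, Alb was higher in the TKO tumors with more Nid1, at 152060 and 206300 CPM in TKO tumors 1 and 2 and 66998 and 37568 CPM in TKO tumors 3 and 4. Apoa1 and Serpina1e shared this order, at 14568, 17834, 8296 and 4543 CPM and at 4977, 7188, 3286 and 636 CPM in TKO tumors 1 to 4. The other hepatocyte markers did not. Asgr1, for the asialoglycoprotein receptor, was at 312, 382, 513 and 313 CPM in TKO tumors 1 to 4, highest in TKO tumor 3, and so was Cps1 of the urea cycle, at 2029, 2315, 3654 and 453 CPM. Alb made up 69.2% to 87.9% of the summed level of the 10 markers, which was 90381 to 139700 CPM in the control livers, 124810 to 325690 in DKO tumors and 50642 to 242310 in TKO tumors. The part of hepatocyte content in the Nid1 values was not tested. Nid2, the second nidogen, was at 1.97 to 4.98 CPM in the control livers, 3.64 to 19.4 in DKO tumors and 3.55 to 8.28 in TKO tumors. The ratio of Nid1 to Nid2 per kb was 5.17 to 8.08 in the control livers. It was 77.2, 38.8, 19.4 and 7.43 in DKO tumors 1 to 4, and 30.3, 49.7, 5.18 and 4.43 in TKO tumors 1 to 4. DKO tumor 4 and TKO tumors 3 and 4 thus did not exceed the control livers.

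Col4a1 (chr8:11198423-11312826, mm9), a chain of the collagen IV network, was at 15.6, 18.9, 10.7 and 29.5 CPM in the control livers, 40.4, 28, 41.2 and 126 in DKO tumors and 63.6, 35.5, 34.2 and 60.7 in TKO tumors. The TKO tumors were all above the control livers, and DKO tumor 2 was just under control 4. The TKO change was 2.60-fold (log2 1.38, SE 0.460, edgeR adjusted p = 0.185). Col4a2, its partner chain, is transcribed in the opposite direction from chr8:11312805 (mm9), so that both first exons share 22 bases, and reads there cannot be told apart without strand. It was at 8.61 to 19.1 CPM in the control livers, 16.9 to 81.1 in DKO tumors and 17.8 to 36.7 in TKO tumors, with a TKO log2 fold change of 0.92 (SE 0.445, edgeR adjusted p = 0.332).

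DKO tumor 4 held the highest value of Col4a1, Col4a2, Nid2, Hspg2 and Col15a1. Endothelial markers went both ways there. Pecam1 was at 69.5 CPM in DKO tumor 4, against 10.6 to 33.2 CPM in the other libraries, and Cdh5 and Cd34 were also highest in it. Clec4g, Oit3, Stab2, Lyve1 and Vwf were at their lowest in it, at 2.06, 1.24, 14.3, 0.943 and 2.36 CPM. These genes were singled out after their values had been seen, and their part in the basement membrane values was not tested. Hspg2, which encodes perlecan, and Agrn, which encodes agrin, had TKO log2 fold changes of 0.32 and 0.13. Col15a1, a collagen of vessel basement membranes, had 0.33.

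Col18a1, the precursor of endostatin and abundant in hepatocytes, was by level the foremost of the basement membrane members and did not separate the groups. It stood at 616, 1183, 829.6 and 1025 CPM in the control livers, 799, 712, 724 and 557 in DKO tumors and 729.8, 1237, 1282 and 538 in TKO tumors. Its TKO log2 fold change was 0.05 (SE 0.302, edgeR adjusted p = 0.957) and was below 0 without control 1, TKO tumor 2 or TKO tumor 3.

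**Figure D3:**
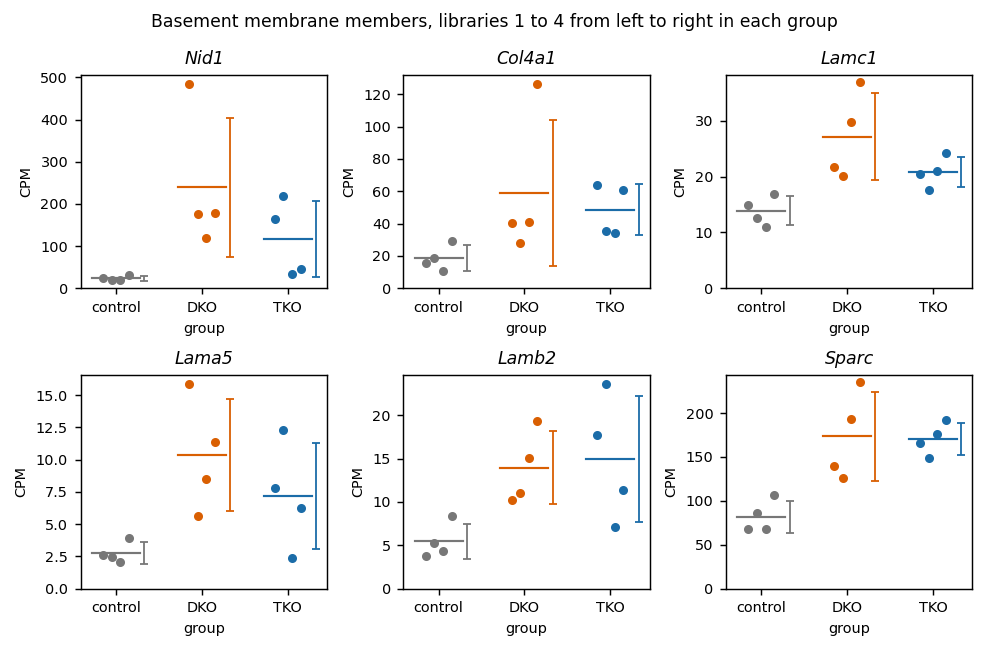
CPM of Nid1, Col4a1, Lamc1, Lama5, Lamb2 and Sparc in the 12 libraries, on linear axes from 0. Points are libraries 1 to 4 from left to right, horizontal lines are group means and vertical bars are 1 SD. Every tumor lies above every control liver for Nid1, Lamc1 and Sparc, and TKO 3 lies within the control range for Lama5 and Lamb2.

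Over the 18 laminin and other basement membrane members, 14 were above the control mean in TKO tumors, 3 had all 4 values higher, and the median log2 fold change was 0.44. Over the 32 tested members outside them, 27 were above the control mean, 1 had all 4 values higher, and the median was 0.22. In DKO tumors, the contrast that chose the set for its laminin interaction genes, the medians were 0.81 and 0.26, and nothing is read from them. All 4 values were higher for 4.38% of all tested genes, and 52.5% of them were above the control mean. By voom with quality weights, the TKO medians took the other order, 0.49 over the 18 and 0.69 over the 32. The difference between both parts of the set was not tested.

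For the genes of the interstitial matrix, levels spread widely within each group and the groups overlapped. Col1a1, which encodes a chain of collagen I, was at 18.2, 23.0, 12.7 and 42.8 CPM in the control livers, 25.8, 17.6, 37.0 and 23.5 in DKO tumors and 20.9, 42.6, 23.5 and 38.9 in TKO tumors. Its groups overlapped, with a TKO log2 fold change of 0.38 (SE 0.363, edgeR adjusted p = 0.650). Col3a1, for collagen III, was at 28.9, 46.0, 26.6 and 61.0 CPM in the control livers, 39.1, 31.2, 90.6 and 36.0 in DKO tumors and 45.8, 72.0, 80.2 and 76.4 in TKO tumors. TKO tumors 2 to 4 were above all control livers and TKO tumor 1 was among them, giving a log2 fold change of 0.76 (SE 0.360, edgeR adjusted p = 0.323).

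Col5a2, for a chain of collagen V that helps to nucleate collagen I fibrils, was at 2.97, 6.52, 2.44 and 7.61 CPM in the control livers, 3.30, 4.03, 6.80 and 5.07 in DKO tumors and 3.80, 9.88, 6.67 and 6.04 in TKO tumors. Its TKO log2 fold change was 0.44 (SE 0.398, edgeR adjusted p = 0.629). Col1a2, Col5a1 and Col5a3, for further chains of collagens I and V, had TKO log2 fold changes of 0.22, -0.04 and -0.20 with overlapping groups. None of the 6 fibrillar collagen genes separated either tumor group from the control livers. Of all tested genes, 8.87% lay wholly above and 7.3% wholly below the control livers in DKO tumors, and 4.38% and 3.29% in TKO tumors.

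Among the microfibril, network and fibril-associated genes, Col6a1, for a chain of the beaded collagen VI filament, was at 4.08, 21.4, 5.35 and 30.1 CPM in the control livers, 5.60, 2.85, 11.7 and 6.66 in DKO tumors and 6.09, 32.2, 21.2 and 15.3 in TKO tumors. Controls 2 and 4 and TKO tumors 2 and 3 were high, and 6 of the 8 tumors lay within the range of the control livers. Its TKO log2 fold change was 0.30 (SE 0.646, edgeR adjusted p = 0.866), and it turned negative without control 1 or without TKO tumor 2. Col6a2 and Col6a3, the partner chains, had 0.21 and 0.72.

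Col8a1, for a network collagen of vessel walls, was at 2.45, 2.58, 1.83 and 2.34 CPM in the control livers, 2.22, 2.85, 4.20 and 3.89 in DKO tumors and 3.08, 3.84, 2.07 and 25 in TKO tumors. TKO tumor 4 alone set the mean of its group, and the log2 fold change of 1.88 (SE 0.674, edgeR adjusted p = 0.205) rests on it, DESeq2 giving no adjusted p for this gene. Col12a1, for a collagen on the fibril surface, was also highest in TKO tumor 4. It was at 1.93, 1.48, 1.29 and 1.90 CPM in the control livers, 2.61, 1.19, 2.84 and 1.89 in DKO tumors and 2.05, 2.56, 1.61 and 5.22 in TKO tumors, with a log2 fold change of 0.79 (SE 0.393, edgeR adjusted p = 0.347).

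Col14a1, also for a fibril-associated collagen, was at 24.9, 25.3, 23.0 and 48.0 CPM in the control livers, 14.0, 22.0, 92.2 and 6.13 in DKO tumors and 26.6, 18, 58.3 and 19.4 in TKO tumors. DKO tumors held both its highest and its lowest value. For TKO tumors the log2 fold change was 0.01 (SE 0.675, edgeR adjusted p = 0.997), with a sign that depended on the scaling. Fbn1, for the microfibril protein fibrillin 1, had 0.45, with overlapping groups.

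Of the crosslinking enzymes, which oxidize lysines of collagen and elastin, Lox was at 1.78, 3.93, 0.881 and 7.39 CPM in the control livers, 2.61, 0.870, 2.31 and 1.42 in DKO tumors and 1.33, 7.6, 4.07 and 2.46 in TKO tumors. Controls 2 and 4 and TKO tumors 2 and 3 were again the highest, and the TKO log2 fold change was 0.15 (SE 0.638, edgeR adjusted p = 0.939). Loxl2 was at 3.26, 6.27, 2.85 and 8.57 CPM in the control livers, 5.83, 4.90, 9.76 and 8.55 in DKO tumors and 6.09, 9.31, 7.75 and 9.62 in TKO tumors. Its groups overlapped through controls 2 and 4, and the TKO log2 fold change was 0.65 (SE 0.349, edgeR adjusted p = 0.383).

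Collagens I, III and VI, Postn and Lox, 8 genes grouped after their values had been seen, were mostly high and low in the same libraries. Col1a1 and Col3a1 did so less clearly. Col1a1 was at 23.0 CPM in control 2 and 23.5 in TKO tumor 3, against 25.8 in DKO tumor 1. Col3a1 was at 46.0 CPM in control 2 and 45.8 in TKO tumor 1. The mean log2(CPM + 0.5) of the 8 genes was 4.31 in control 2 and 4.75 in control 4, and 2.83 and 2.59 in controls 1 and 3. It was 4.97, 4.32 and 4.00 in TKO tumors 2, 3 and 4 and 4.02 in DKO tumor 3, while the other 3 DKO tumors and TKO tumor 1 were between 2.63 and 3.25. The summed level of 12 stellate cell and fibroblast markers was 324, 339, 265 and 342 CPM in controls 1 to 4, in the same order as these genes. It was 538 CPM in DKO tumor 3 and 352 CPM in TKO tumor 3, which were among the high libraries, but 186 CPM in TKO tumor 2, where the 8 genes were highest. Dcn weighed most in this sum, at 210, 202, 168 and 180 CPM in controls 1 to 4 and 89.8 CPM in TKO tumor 2. Single markers went both ways in TKO tumor 2. Acta2 was at 25.3 CPM there, against 4.75 to 18.7 in the control livers, and Lum at 2.98 CPM, against 7.18 to 10.2. The part of these cells in the values was not tested. The Col1a1 to Col1a2 ratio per kb was 0.724 to 1.02 in controls 2 and 4 and TKO tumors 2 and 3, and 1.78 to 2.52 in the other 8 libraries. Both genes encode chains of collagen I.

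**Figure D4:**
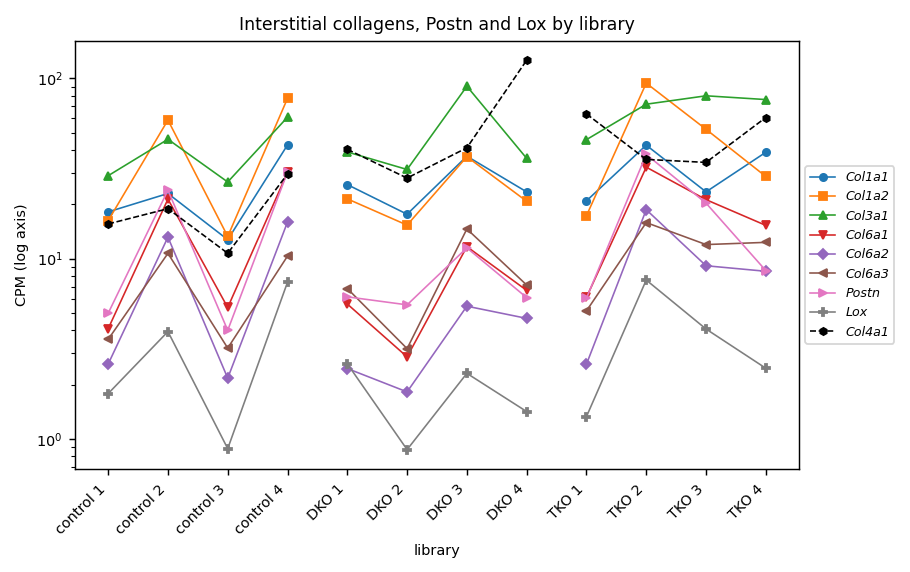
CPM on a log axis of 8 interstitial matrix genes (coloured) and of Col4a1 (black, dashed) in the 12 libraries. Lines join the values of a gene within a group for the eye only, as libraries have no order. The coloured lines climb together in control 2, control 4, DKO 3 and TKO 2, whereas Col4a1 peaks in DKO 4 at 126 CPM.

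The adhesive glycoproteins held both the foremost member by level and the member with the lowest adjusted p. Fn1 (chr1:71632094-71699774, mm9), which encodes the fibronectin that hepatocytes secrete into plasma, was at 1547, 1269.9, 1209.6 and 1454 CPM in the control livers, 2761, 1536, 1411 and 1468 in DKO tumors and 1298, 2148, 1377 and 741 in TKO tumors. DKO tumor 1 and TKO tumor 2 were above the control livers, TKO tumor 4 was below them and the other 5 tumors were within their range, and the TKO log2 fold change was 0.02 (SE 0.329, edgeR adjusted p = 0.984). Without TKO tumor 2 it was -0.27.

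Sparc (chr11:55208002-55233582, mm9) was at 67.6, 85.8, 67.4 and 106 CPM in the control livers, 139.6, 126, 193 and 235 in DKO tumors and 165, 149, 176 and 192 in TKO tumors. Each of the 8 tumors was above each control liver, and the TKO tumors varied little, at 170.4 ± 18.1 CPM (SD, n = 4) against 81.8 ± 18.5 in the control livers. The TKO change was 2.08-fold (log2 1.06, SE 0.218), with an adjusted p of 0.0915 by edgeR, 0.00156 by DESeq2 and 0.0435 by voom. In DKO tumors the log2 fold change was 1.08.

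Thbs1, for thrombospondin 1, an activator of latent TGF-beta, was at 4.97, 2.70, 4.34 and 2.93 CPM in the control livers, 8.20, 7.75, 11.7 and 11.7 in DKO tumors and 4.82, 6.4, 7.36 and 7.24 in TKO tumors. TKO tumors 2 to 4 were above the control livers, TKO tumor 1 was just below control 1, and all 4 were below every DKO tumor. The TKO log2 fold change against the control livers was 0.78 (SE 0.245, edgeR adjusted p = 0.170). Tnc, Thbs2 and Postn, for tenascin C, thrombospondin 2 and periostin, which are made in remodelling stroma, had 0.31, -0.15 and 0.21, with overlapping groups.

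Among the receptors, Itga6, the alpha subunit of the laminin-binding pairs with Itgb1 and Itgb4, was at 8.01, 6.15, 5.83 and 7.18 CPM in the control livers, 15.2, 21.3, 10.8 and 23.2 in DKO tumors and 15.7, 9.38, 6.21 and 14.0 in TKO tumors. DKO tumors and TKO tumors 1, 2 and 4 were above the control livers, and TKO tumor 3 was within them. The TKO log2 fold change was 0.74 (SE 0.300, edgeR adjusted p = 0.253). Itga5, the fibronectin receptor's alpha subunit, was at 16.7, 11.9, 14.6 and 21.7 CPM in the control livers, 34.2, 23.1, 20.6 and 24.4 in DKO tumors and 25.6, 28.1, 32.4 and 14.1 in TKO tumors. TKO tumor 4 was among the control livers and the other 3 above them, with a log2 fold change of 0.62 (SE 0.259, edgeR adjusted p = 0.260).

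Itgav, whose product pairs with several beta subunits and binds RGD motifs, was at 44.9, 23.2, 36.7 and 40.1 CPM in the control livers, 52.5, 44.8, 48.4 and 30.5 in DKO tumors and 39.9, 33.8, 36.1 and 42.5 in TKO tumors. The groups overlapped, and the TKO log2 fold change was 0.07 (SE 0.207, edgeR adjusted p = 0.909). Itga1 and Itga2 encode collagen-binding subunits, Itga3 a laminin-binding one and Itga9 one that binds tenascin. Their TKO log2 fold changes were 0.16, -0.44, 0.04 and 0.31, with overlapping groups in each.

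Itgb1, the common beta partner of the laminin, collagen and fibronectin receptors, was at 226, 174, 181 and 193 CPM in the control livers, 227, 229, 245 and 281 in DKO tumors and 197, 194, 200.3 and 197 in TKO tumors. The TKO tumors lay between 194 and 200.3 CPM, inside the control range, and DKO tumor 1 exceeded control 1 by a small margin. The TKO log2 fold change was 0.02 (SE 0.133, edgeR adjusted p = 0.952). Itgb5, a partner of alpha v, was at 66.3, 83.5, 66.4 and 77.4 CPM in the control livers, 111, 98.8, 92.8 and 104 in DKO tumors and 75.6, 123, 70.2 and 74.9 in TKO tumors. Only TKO tumor 2 was above the control range, and the log2 fold change was 0.23 (SE 0.177, edgeR adjusted p = 0.562).

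Itgb4, the partner of Itga6 in hemidesmosomes, was scarce, with 3 to 28 counts per library. It was at 1.26, 0.369, 1.02 and 0.879 CPM in the control livers, 1.99, 2.06, 1.66 and 0.825 in DKO tumors and 0.603, 0.213, 0.460 and 1.04 in TKO tumors. DKO tumors 1 to 3 were above all other libraries, and the TKO log2 fold change was -0.63 (SE 0.496, edgeR adjusted p = 0.564). Dag1, for the laminin receptor dystroglycan, was at 87.7 to 129 CPM in all libraries. Its TKO log2 fold change was 0.13 (SE 0.147, edgeR adjusted p = 0.721).

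TKO tumors were then set against DKO tumors, the comparison that concerns the added loss of Rb1. The DKO values had chosen the set, so lower values in TKO tumors are not free of that choice. Of the 50 members, 23 were higher and 27 lower in TKO tumors, with a median log2 difference of -0.02 beside 0.01 over all tested genes. All 4 TKO values were above all DKO values for 0 members, with 2.75% of all tested genes. They were below them for 4 members, Thbs1, Itga2, Itga3 and Itgb1, or 8.00%, with 2.12% of all tested genes. By edgeR, 0 members and 0% of all tested genes had an adjusted p under 0.05. An unadjusted p under 0.05 was reached by 6 members, or 12%, against 9% of all tested genes. DESeq2 called 0 members, with 0.398% of its genes called, and voom called 0 members and 0 of all tested genes.

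The lowest adjusted p of the members in this comparison was 0.425, for Itga3, which is named, with Itga2, after its values had been seen. Itga3 was at 9.42, 8.73, 9.15 and 7.39 CPM in the control livers, 13.9, 11.8, 12.3 and 23.0 in DKO tumors and 9.04, 10.9, 8.13 and 7.53 in TKO tumors. The TKO tumors thus stood at the control level, with a log2 difference to DKO tumors of -0.77 (SE 0.217). For Itga2 the difference was -1.50 (SE 0.645, adjusted p = 0.554), for Itgb4 -1.47 (SE 0.481, adjusted p = 0.450), for Thbs1 -0.61 (SE 0.239, adjusted p = 0.515) and for Itgb1 -0.32 (SE 0.133, adjusted p = 0.554). Markers of cholangiocytes, the epithelium of bile ducts, went the same way as Itga2 and Itgb4, with 5 of 6 tested markers lower in TKO than in DKO tumors and a median of -0.67. Among them Tspan8 differed by -2.38 (SE 0.519, adjusted p = 0.281) and Epcam by -1.08 (SE 0.839, adjusted p = 0.719), and their part in the integrin values was not tested. All 4 tested members among the integrin beta subunits and dystroglycan, and 6 of the 7 integrin alpha subunits, were lower in TKO than in DKO tumors by the sign of the fitted change, which was close to 0 for Dag1. With total counts as the scaling, 3 of these 4 and 4 of the 7 were lower, and by voom 3 of 4 and 6 of 7. Col6a1 differed the other way, by 1.47 (SE 0.663, adjusted p = 0.554), and so did 5 of the 6 fibrillar collagens by sign. For Nid1, Lamc1, Lama5, Lamb2, Col4a1 and Sparc, the differences were -1.04, -0.39, -0.52, 0.10, -0.28 and -0.02.

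**Figure D5:**
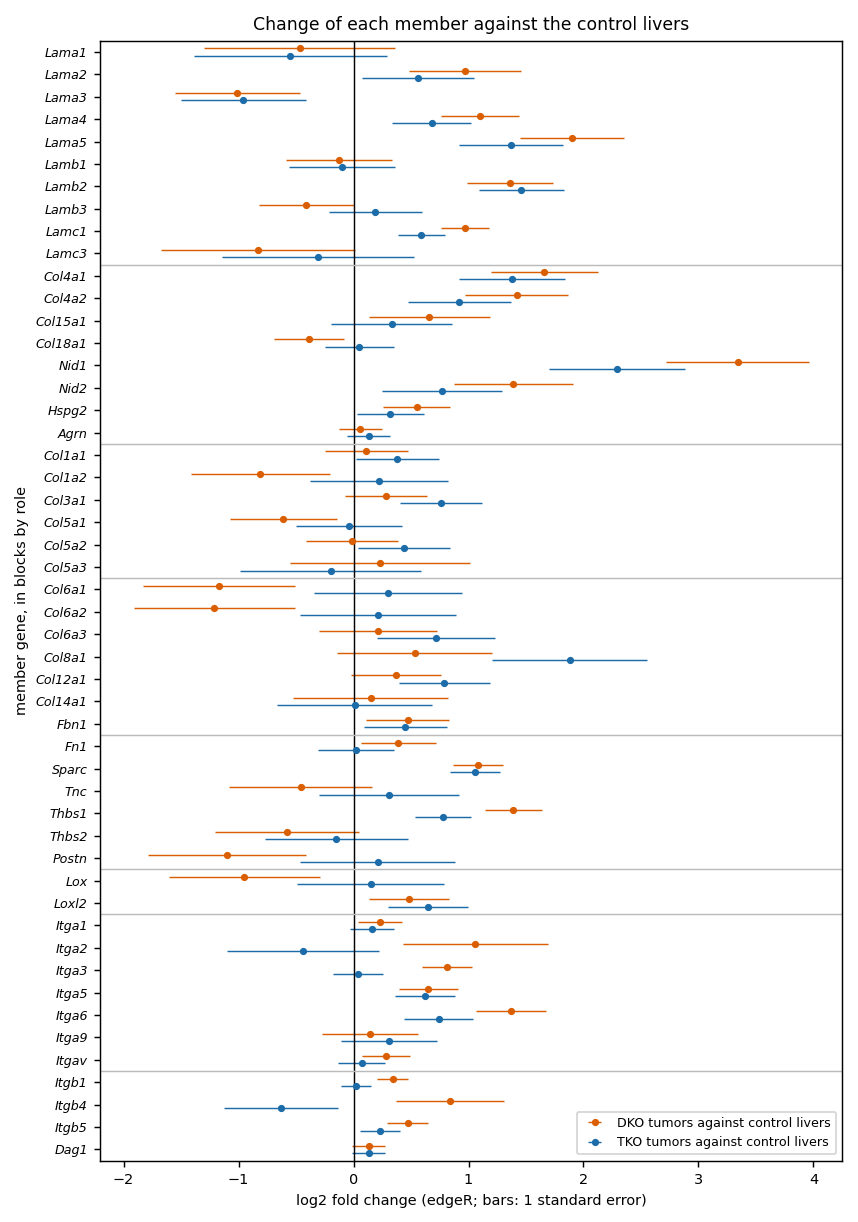
Fitted log2 fold change of the 50 tested members against the control livers in DKO tumors (orange) and TKO tumors (blue), with bars of 1 SE and genes in blocks by role. Both tumor groups share the control livers. Nid1 lies farthest right in both, and Col6a1, Col6a2, Postn and Lox lie left of 0 in DKO tumors only.

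The wider pathway was followed in 6 lists of other genes. Of their 94 genes, 85 were tested. In TKO tumors 58 were above the control mean and 27 below it, with a median log2 fold change of 0.22, and edgeR called 0 of them, with 19 at an unadjusted p under 0.05, beside 16.3% of all tested genes. DESeq2 called 3 higher and 1 lower, with 3.32% of its genes called. In TKO tumors, 9 of 14 other laminin, collagen and basement membrane genes, 4 of 11 other integrins, 4 of 10 other laminin receptors and syndecans, 16 of 20 focal adhesion genes, 12 of 13 collagen processing genes and 13 of 17 protease and inhibitor genes were above the control mean, as were 52.5% of all tested genes.

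Markers of the cell types that make matrix are given beside these values, and their part in them was not tested. The 12 stellate cell and fibroblast markers summed to 265 to 342 CPM in the control livers, 125 to 538 in DKO tumors and 184 to 352 in TKO tumors, and 0 of 12 separated the groups in either comparison with the control livers. Over all tested genes, 8.87% were wholly higher and 7.3% wholly lower in DKO tumors, and 4.38% and 3.29% in TKO tumors. The 12 endothelial markers summed to 169.8 to 267 CPM in the control livers, 221 to 339 in DKO tumors and 231 to 429 in TKO tumors. All 12 were above the control mean in TKO tumors, beside 52.5% of all tested genes. Of them 2, Pecam1 and Lyve1, had all 4 values higher, beside 4.38% of all tested genes. The 9 cholangiocyte markers summed to 46.7 to 70.6 CPM in the control livers, 59.2 to 149.9 in DKO tumors and 60.4 to 76.5 in TKO tumors. Of these Cftr was at 0 in control 2, and Krt19 and Epcam were low in control 2 and TKO tumor 2, at 0.426 to 0.738 CPM. The 8 Kupffer cell and macrophage markers summed to 211 to 549, 64.1 to 450.2 and 137 to 612 CPM, and the 4 mesothelial markers to 1.29 to 6.15, 2.21 to 6.03 and 1.99 to 4.70 CPM, in the same order of groups.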

How the data were processed

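Poly(A) RNA of 4 control livers, 4 DKO tumors and 4 TKO tumors was sequenced on a SOLiD instrument. The authors mapped the reads to mm9 with BWA and deposited raw counts per Entrez gene from featureCounts. Versions, strand setting and multi-mapped reads are not given in the sources used here. In the gene names, 24191 of 26301 identifiers had a symbol, holding 99.4% of counts. Gene positions are those of GENCODE for mm9, and lengths are of its exons.

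Counts were tested with edgeR 4.0.16 (R 4.3.3): TMM, filterByExpr, 1 mean per group over all 12 libraries, quasi-likelihood test, and Benjamini-Hochberg adjustment over 13882 genes at 0.05. The method was tested on simulated data, with changes larger than those of most members and none in scarce genes. That test therefore does not show whether changes of the size seen in most members would be called. Alternatives were DESeq2 1.42.0 with default settings, limma 3.58.1 voom with quality weights, DESeq2 size factors, total counts, no filter, at least 10 counts in every library, the 8 libraries of a contrast, the replicate number as a block, and leaving out each library. CPM carry TMM scaling, with 0.5 added before log2. Label descriptions carry letters, some shared between groups, whose meaning is not given in the sources used here, and no test used them. Controls 2 and 3, which share one, were the most alike pair within a group, with a chi-square per gene of 18.4 against 57.9 or more in every other pair, and were kept as separate samples. The p-values measure the spread between these 12 samples.

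Members and lists were chosen with earlier results of these data known. Values per library are given for members called by edgeR in a tested comparison and, in each role group, for the 2 with the highest level per kb and the 2 with the largest TKO change. Other members are given by range, and pathway genes only where called, of which 1 is not reported here.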

Additional observations from a re-analysis of the deposited data

Results flagged for a closer look

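In groups of 4 libraries, a value was marked when the ratio of its gap to the nearest other value and the group's range passed Dixon's 95% limit. Of 72 groups examined for the 24 members given in full, 7 (9.72%) held such a value, in each case the highest of its group. The limit gives about 1 in 20 for independent, normally distributed values. These were CPM without a log, from genes that share libraries, so nothing is read from the share. DKO tumor 4 had 126 CPM of Col4a1, the other DKO tumors 28 to 41.2. DKO tumor 1 had 483 CPM of Nid1, the others 119.6 to 178, and 2761 CPM of Fn1, the others 1411 to 1536. DKO tumor 3 had 90.6 CPM of Col3a1, the others 31.2 to 39.1. TKO tumor 4 had 25 CPM of Col8a1, the others 2.07 to 3.84. TKO tumor 2 had 123 CPM of Itgb5, the others 70.2 to 75.6. Control 4 had 48.0 CPM of Col14a1, the others 23.0 to 25.3.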

How the results depend on the processing

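Members called between TKO tumors and control livers by edgeR numbered 0, and 3 by DESeq2 and 1 by voom. Leaving out single libraries gave 0 to 3, the 3 being Lama5, Lamb2 and Nid1 without TKO replicate 3. Between TKO and DKO tumors, 0 members were called under every alternative, and over all genes 0, with 56 by DESeq2 and 0 to 0 leaving out single libraries. Between TKO tumors and control livers, calls over all genes went from 12 to 22 without a filter, 498 by DESeq2, 97 by voom and 1 with the replicate block, and from 0 to 231 leaving out single libraries, the 231 without TKO replicate 3. Between DKO tumors and control livers they went from 336 to 59 with total counts, 1491 by DESeq2, 1804 by voom, 759 in the 8 libraries alone and 509 with the replicate block, and from 0 (without control replicate 2 or 3) to 651 (without TKO replicate 3). The cause was not tested. Same-numbered libraries come from different mice, and the correlations of their deviations ran from -0.174 to 0.37, so the numbers do not pair them. Under total counts the median of all genes between TKO tumors and control livers was 0.17 and that of the members 0.41, and by voom the members' median was 0.65, against 0.30.

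Of 479 recomputed changes of the 24 members, 449 kept sign and side of the threshold, 7 passed it and 23, of 7 members with TKO changes near 0, turned negative. Col14a1 was at -0.0038 with DESeq2 size factors, -0.00038 by DESeq2, -0.31 with the replicate block, and from -0.51 (without TKO replicate 3) to 0.32 leaving out single libraries, where it was also negative without control replicates 1 to 3. Col18a1 was at -9.8e-05 with the replicate block and from -0.13 (without TKO replicate 3) to 0.24, Fn1 at -0.03 with the block and from -0.27 (without TKO replicate 2) to 0.22. Leaving out single libraries, Col6a1 went from -0.099 (without TKO replicate 2) to 0.89, Lox from -0.42 (without TKO replicate 2) to 0.85, Itgav from -0.092 (without control replicate 2) to 0.19 and Itgb1 from -0.024 (without control replicate 2) to 0.11. Members with few counts, such as Itgb4, Lama1 and Lamb3, cannot show small changes at this depth.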

Other observations

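Outside the 52 genes, the neighbouring genes Col4a3 and Col4a4, which encode the collagen IV chains known from the kidney glomerulus and lung, had the largest changes on the list of other laminins, collagens and basement membrane genes, and are named after their values had been seen. Col4a3 was at 0.492 to 0.881 CPM in the control livers, at 14.2, 6.33, 5.32 and 0.943 in DKO tumors 1 to 4 and at 17.7, 14.5, 0.614 and 1.04 in TKO tumors 1 to 4. Col4a4 was at 0.293 to 0.371 CPM in the control livers, at 3.53, 2.77, 2.90 and 0.884 in DKO tumors and at 6.87, 8.24, 0.614 and 0.597 in TKO tumors. Both were high in the same 5 tumors. In DKO tumor 4 and TKO tumors 3 and 4 they stood at 1.04 CPM or less, with Col4a4 still above every control liver. The TKO log2 fold changes were 3.57 (SE 1.06, edgeR adjusted p = 0.153) and 3.55 (SE 0.874, edgeR adjusted p = 0.130), and neither passed the threshold in edgeR. DESeq2 called 3 of the 14 tested genes on this list higher in TKO tumors, with 3.32% of its genes called. Smoc2, for a secreted calcium-binding protein of basement membranes, was at 5.53 to 13.1 CPM in the control livers and above that range in the same 5 tumors, at 46.2, 17.9 and 25.4 in DKO tumors 1 to 3 and 34.9 and 28.5 in TKO tumors 1 and 2. It was at 6.37 CPM in DKO tumor 4, and at 7.44 and 9.25 in TKO tumors 3 and 4. Col4a1, in contrast, was highest in DKO tumor 4.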
